A study of Mus musculus with 28 samples.

Results

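The genes described here are the plasminogen activators *Plau* and *Plat*, the receptor *Plaur* and the serpin inhibitors *Serpinb2* and *Serpine2*, 5 of the 50600 genes counted. They were found by matching the Ensembl ID of each row, without its version, to the 5 symbols. The group was chosen by the level of *Serpinb2*, which was already known to stand apart between the stromal subsets. Levels over the 8 groups were known as well. The differences between stromal subsets and between lineages are therefore given as a description, without a test. Differences between luminal subsets and with E+P are contrasts of the same 8 groups. They were tested, but their p values are not independent of what was known. The cells were sorted by FACS out of mammary glands from 7 female C57BL/6 mice, 10 to 12 weeks old, all carrying *PdgfrαCre* and the *R26mTmG* reporter. Of these mice, 4 were untreated and 3 were treated with estrogen plus progesterone (E+P), which the methods describe, in a sentence about wild-type mice, as slow-release pellets with 0.14 mg of estradiol and 14 mg of progesterone, left in place over 14 days. From each mouse GFP+ and tdTomato+ cells were taken from both stroma and luminal epithelium, which gave 28 libraries in 8 groups of 4 untreated or 3 E+P-treated mice. The Cre is driven by *Pdgfra* and is constitutive, so GFP marks cells that expressed Cre at any time, together with their progeny, and tdTomato marks the remaining cells. Stromal cells were sorted as CD49f- EpCAM- and luminal cells as CD49f-low EpCAM+, after cells with the lineage markers CD31, CD45 and Ter119 had been gated out.

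Plasminogen activators are serine proteases that cut plasminogen into plasmin, a protease that dissolves fibrin and takes part in the turnover of extracellular matrix and in the activation of growth factors and other proteases. *Plau* encodes urokinase, which acts at the cell surface when bound to the receptor encoded by *Plaur*, and *Plat* encodes tissue-type plasminogen activator, which works best on fibrin. Serpins inhibit these proteases by trapping them in a covalent complex. *Serpine2* encodes protease nexin-1, an inhibitor of thrombin, urokinase and tissue-type activator held at the cell surface and in the matrix, and *Serpinb2* encodes plasminogen activator inhibitor type 2, a clade B serpin that is mostly kept inside the cell. In the mammary gland this system is known mainly from the remodeling of ducts and alveoli.

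The libraries held 8623383 to 24583803 counted reads, at which 3 counts equal 0.122 to 0.348 CPM. CPM are read counts relative to library size, scaled by TMM factors wherever levels are given. Intervals and floors cover the counting error of reads only. The reads carry no molecular identifiers, so PCR copies count as separate reads and the intervals may be too narrow. The sorted populations were checked with lists of defining genes. The summed level of 9 fibroblast markers ranged from 32647 to 62073 CPM in GFP+ stroma, from 2511 to 7127 CPM in tdTomato+ stroma and from 7.67 to 113 CPM in luminal cells. The tdTomato+ stroma also held 10 of 10 skeletal muscle markers at a mean of 10 CPM or more, whose sum ranged from 2691 to 20662 CPM, and 9 of 9 pericyte and smooth muscle markers, at 6925 to 9954 CPM, against at most 12.9 and 316 CPM in GFP+ stroma. The sum of 8 macrophage and monocyte markers was 4.17 to 9.35 CPM in GFP+ and 23.8 to 39.4 CPM in tdTomato+ stroma. In untreated tdTomato+ stroma *Ptprc* (13.0 CPM), *Lyz2* (8.06) and *Cd68* (6.09) led this list, while *Adgre1* and *Fcgr1* had no counts in untreated stroma. In luminal cells the list summed to 13.5 to 220 CPM, most of it *Cd14*. The sum of 8 luminal epithelial markers was 4455 to 7654 CPM in luminal cells. In tdTomato+ stroma it was 19.9 to 495 CPM without and 3.24 to 38.0 CPM with E+P, and in GFP+ stroma 19.5 to 89.5 and 4.23 to 5.92 CPM. The part of these markers in the comparisons of stroma was not tested. In such sorted bulk samples, fewer cells of a type and less RNA per cell cannot be told apart.

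The 5 genes differed in where they were found, as the plot of the level in each library shows. *Plat* and *Plau* had their highest levels in GFP+ stroma, *Serpinb2* was close to absent outside GFP+ stroma, *Serpine2* was highest in the tdTomato+ luminal cells of E+P-treated mice, and *Plaur* had overlapping levels in stroma, with group means of 6.58 to 41.0 CPM, and in luminal cells, with 13.2 to 38.0 CPM.

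**Figure D1:**
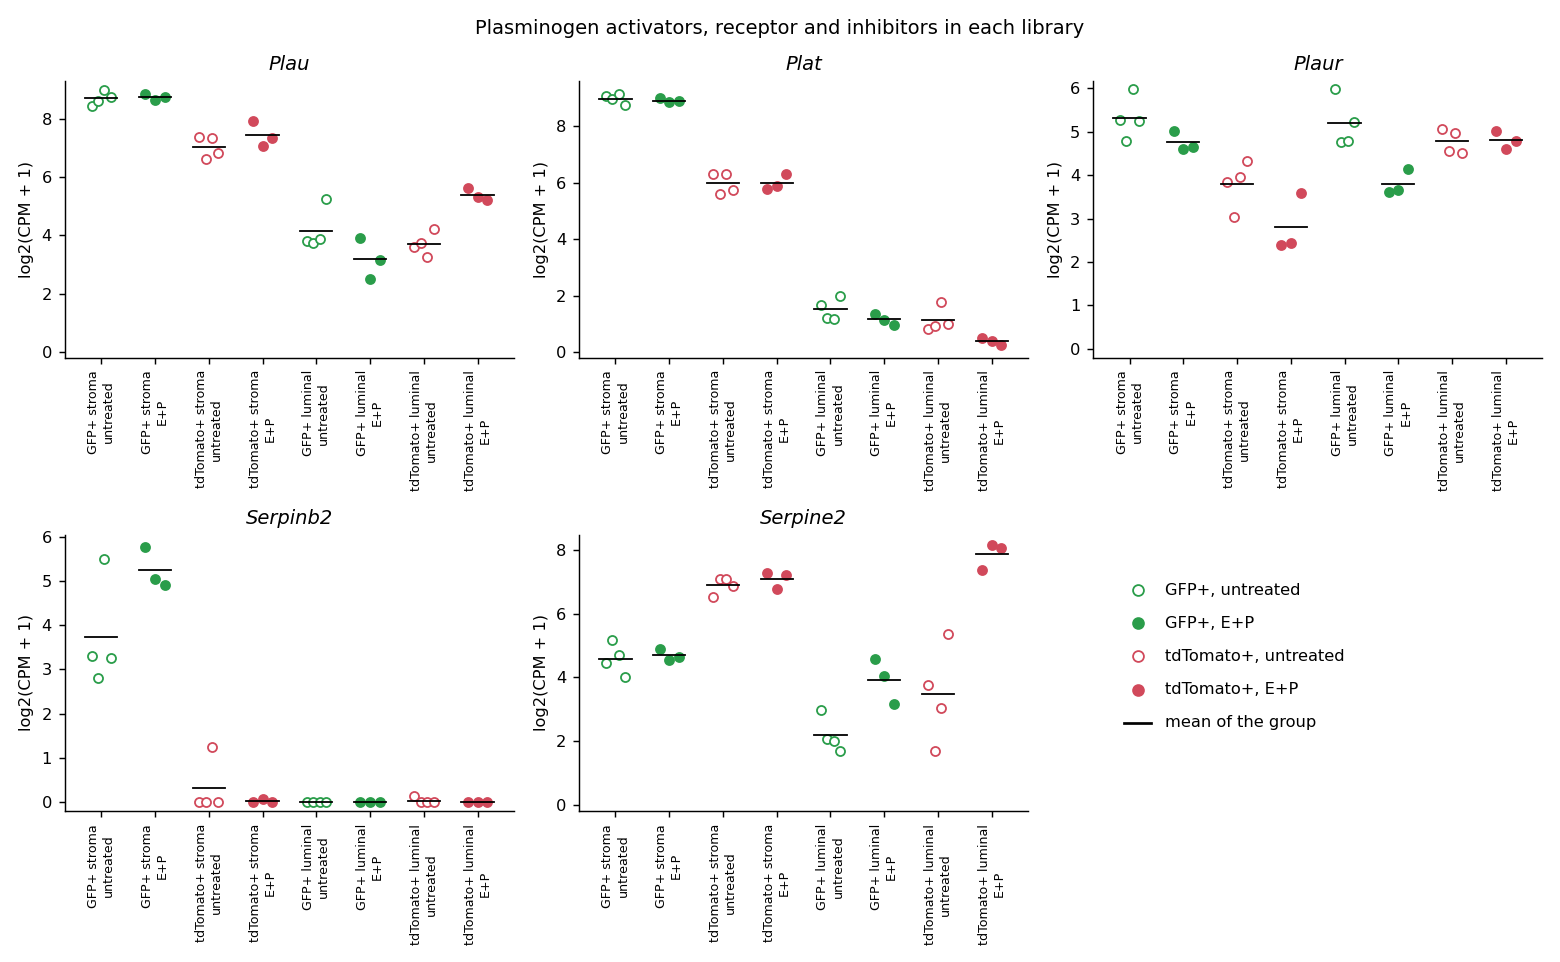
Level of each gene in each of the 28 libraries on the scale log2(CPM + 1), with a panel for each gene and the 8 groups along the horizontal axis. Points are libraries, open for untreated and filled for E+P-treated mice, and lines are group means. *Serpinb2* reached 44.2 CPM in 1 untreated GFP+ stromal library and lay between 6.04 and 8.93 CPM in the other 3.

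To compare the genes with each other, levels were divided by the length of their merged exons. In stroma *Plau* made up most of the summed level per kilobase of the 5 genes. Its share was 62.3% ± 4.07 (SD, n = 4) in untreated GFP+ stroma, 63.2% ± 1.23 (n = 3) with E+P, 64.7% ± 4.69 (n = 4) in untreated tdTomato+ stroma and 71.5% ± 6.10 (n = 3) with E+P. The second place went to *Plat* in GFP+ stroma, at 29.0% ± 4.01 without hormones, and to *Serpine2* in tdTomato+ stroma, at 17.2% ± 5.31. In luminal cells *Plaur* took the first place in 3 of the 4 groups, at 62.3% ± 13.3 in untreated GFP+ cells, 48.0% ± 13.8 in GFP+ cells with E+P and 59.3% ± 13.4 in untreated tdTomato+ cells. In the tdTomato+ luminal cells of E+P-treated mice *Serpine2* took that place, at 50.4% ± 10.8, and *Plaur* was at 18.5% ± 4.16. The summed level per kilobase was highest in GFP+ stroma, at 285 ± 44.2 CPM in untreated and 290 ± 24.4 CPM in E+P-treated mice, and lowest in the GFP+ luminal cells of E+P-treated mice, at 10.9 ± 2.42 CPM.

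**Figure D2:**
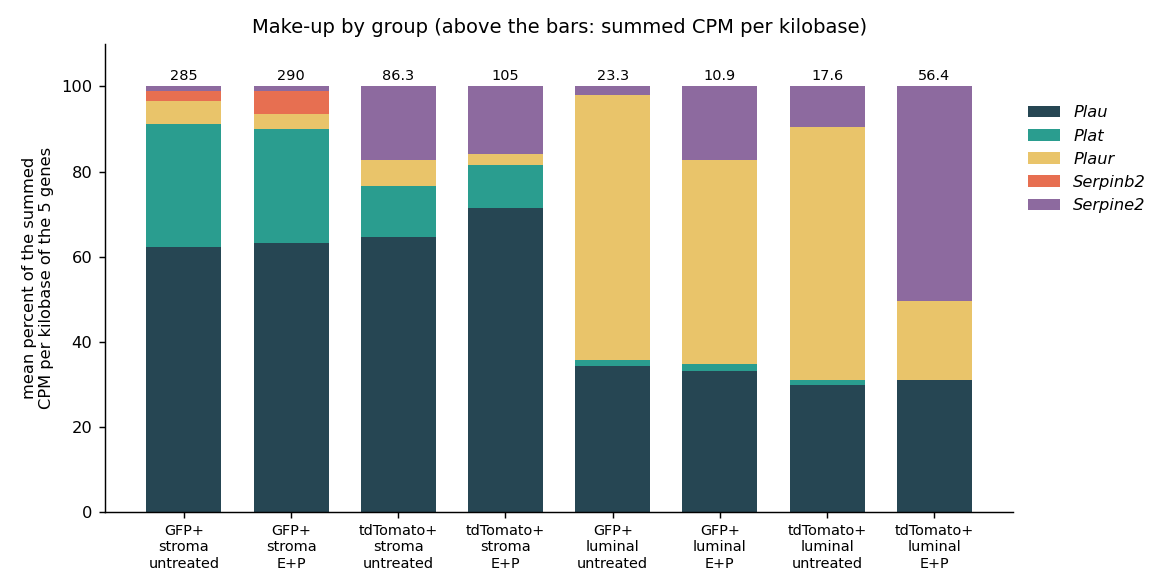
Mean share of each gene, in percent, in the summed CPM per kilobase of the 5 genes, for the 8 groups. Numbers above the bars are the mean summed CPM per kilobase, lowest at 10.9 for GFP+ luminal cells under E+P and highest at 290 for GFP+ stroma under E+P, and *Serpine2* fills 50.4% of the bar of E+P-treated tdTomato+ luminal cells.

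In stroma all 5 genes passed the low-count filter, and in luminal cells 4 did, since *Serpinb2* was removed. In stroma *Serpinb2* passed through its reads in GFP+ cells, since tdTomato+ stroma held 21 untreated reads and 1 treated read of it. Its tests of E+P in tdTomato+ stroma and of the difference between stromal responses therefore could not decide, although the counts below include it. In the comparison of the luminal subsets 2 of the 4 genes passed an adjusted p of 0.01 in edgeR's quasi-likelihood test, where 34.7% of all genes did. With E+P, 1 of 4 passed in GFP+ luminal cells, where 5.96% of all genes did, and 1 of 4 in tdTomato+ luminal cells, where 14.1% did. In GFP+ stroma E+P gave 0 of 5, with 0 at an unadjusted p under 0.05, where 0.231% of all genes passed. In tdTomato+ stroma it gave 0 of 5, with 1 at an unadjusted p under 0.05, where 0.124% of all genes passed. The difference between the responses of the stromal subsets passed for 0 of 5 genes, with 0 at an unadjusted p under 0.05, against 0.0450% of all genes. For the luminal subsets it passed for 0 of 4, with 2 at an unadjusted p under 0.05, against 2.27% of all genes. In the 3 stromal tests limma-voom and the DESeq2 Wald test also called 0 of the 5 genes, while for the difference between the luminal subsets limma-voom called 1 gene and DESeq2 called 2. For the contrasts given as a description, 42.0% of all genes differed between GFP+ and tdTomato+ stroma and 63.5% between stroma and luminal cells.

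**Figure D3:**
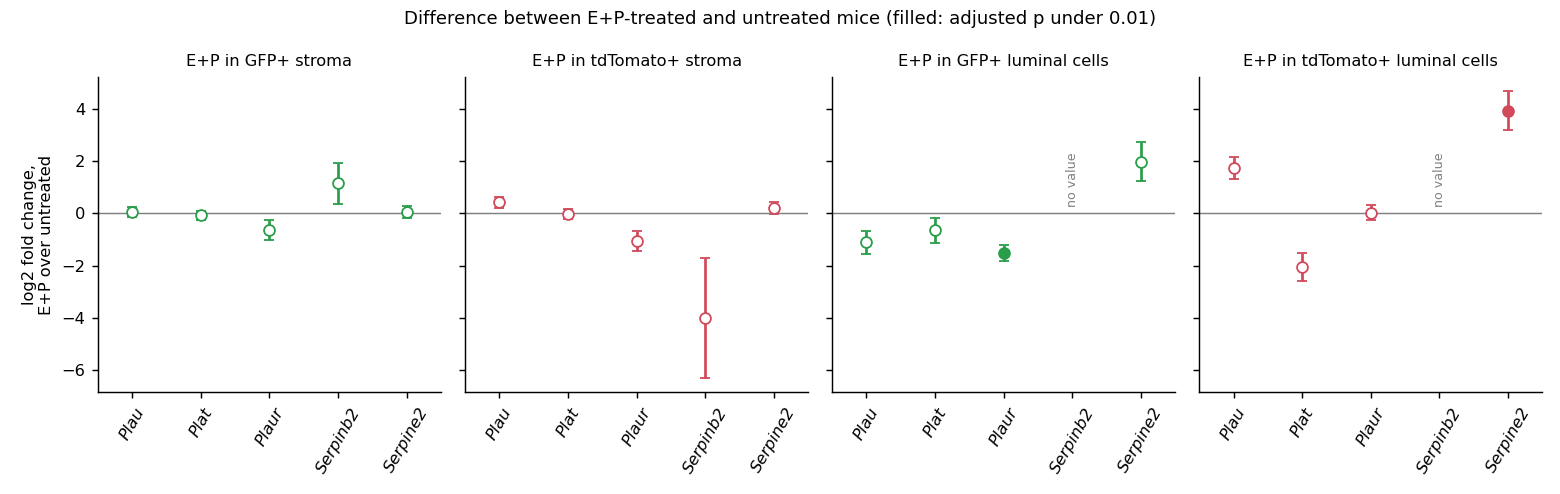
Log2 fold change of E+P-treated over untreated mice for each gene in the 4 sorted populations, with bars of 1 standard error from edgeR. Filled points passed an adjusted p of 0.01, and these were *Plaur* in GFP+ luminal cells at −1.52 and *Serpine2* in tdTomato+ luminal cells at 3.95; *Serpinb2* was removed by the low-count filter in luminal cells, and its value of −4.02 in tdTomato+ stroma rests on 21 reads of 1 untreated library and 1 read of a treated one.

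*Plau* (ENSMUSG00000021822, GRCm38 chromosome 14, 20836660 to 20843385, plus strand) is the gene of urokinase. In the GFP+ stroma of untreated mice 1 to 4 it was counted at 346, 395, 503 and 435 CPM, and with E+P at 466, 402 and 434 CPM. In tdTomato+ stroma the values were 165, 96.9, 160 and 112 CPM without and 244, 133 and 161 CPM with hormones. Every GFP+ stromal library was above every tdTomato+ one. The log2 difference between the stromal subsets, averaged over treatments, was 1.45 (standard error 0.15), with GFP+ cells higher in 7 of 7 mice. Stroma exceeded luminal cells by 3.91 (0.20) on the log2 scale. The difference with E+P did not pass the test in either stromal subset. Log2 fold changes were 0.06 (SE 0.21, adjusted p = 1, edgeR) in GFP+ and 0.43 (SE 0.21, adjusted p = 0.326, edgeR) in tdTomato+ cells. E+P values were higher in 7 of 12 pairs of mice in GFP+ and in 9 of 12 in tdTomato+ stroma.

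In GFP+ luminal cells *Plau* was at 13.0, 12.2, 13.6 and 37.3 CPM in untreated mice 1 to 4 and at 14.1, 4.68 and 7.91 CPM in the E+P-treated mice. In the tdTomato+ luminal cells of the same mice it was at 11.3, 12.4, 8.53 and 17.8 CPM without and 48.0, 39.2 and 35.7 CPM with hormones. Untreated values of the subsets overlapped, whereas the 3 E+P-treated tdTomato+ libraries stood above every other luminal library except the GFP+ library of untreated mouse 4, whose 37.3 CPM exceeded the lowest of them. The log2 fold change with E+P in tdTomato+ luminal cells was 1.74 (SE 0.43), higher in 12 of 12 pairs of an E+P-treated and an untreated mouse. Its adjusted p of 0.0104 (edgeR) lay just outside the threshold of 0.01, the exact permutation test gave a two-sided p of 0.0286, the smallest that 4 against 3 mice allow, and limma-voom (adjusted p = 0.0016) and DESeq2 (adjusted p = 0.00025) called it. In GFP+ luminal cells the log2 fold change was −1.10 (SE 0.45, adjusted p = 0.12, edgeR). The difference between the responses of the luminal subsets was −2.84 (SE 0.62, adjusted p = 0.0179, edgeR), and a mouse block made it a call, at an adjusted p of 0.0025. Without untreated mouse 4, the mouse with the highest value in both untreated luminal subsets, this adjusted p was 0.0069 without the block. Averaged over treatments, *Plau* was 0.83 lower in GFP+ than tdTomato+ luminal cells on the log2 scale (SE 0.31, adjusted p = 0.0408, edgeR; 0.0019 under the mouse block), in 4 of 7 mice.

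*Plat* (ENSMUSG00000031538, chromosome 8, 22757727 to 22782844, plus strand) is the gene of tissue-type plasminogen activator. Its level in untreated GFP+ stroma was 535, 504, 574 and 430 CPM, and 512, 464 and 475 CPM with E+P. In tdTomato+ stroma it was 78.7, 48.0, 78.8 and 52.3 CPM, and 53.6, 58.6 and 78.0 CPM with E+P. The stromal subsets lay far apart, and treated and untreated values overlapped in both. GFP+ stroma exceeded tdTomato+ stroma by 2.94 (SE 0.13) on the log2 scale, in 7 of 7 mice. The log2 fold changes with E+P were −0.07 (SE 0.18, adjusted p = 1, edgeR) in GFP+ and −0.02 (SE 0.18, adjusted p = 0.972, edgeR) in tdTomato+ stroma.

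Luminal cells held little *Plat*. GFP+ luminal cells had 2.15, 1.31, 1.26 and 2.99 CPM without and 1.56, 1.18 and 0.957 CPM with E+P, which are 13 to 38 counts a library. In tdTomato+ luminal cells the values were 0.774, 0.913, 2.39 and 1.01 CPM, and 0.401, 0.299 and 0.19 CPM, or 4 to 7 counts, with E+P. GFP+ cells were higher in 6 of 7 mice, the exception being untreated mouse 3. The log2 difference between the luminal subsets was 1.31 (SE 0.36, adjusted p = 0.0075, edgeR), and the exact sign-flip permutation test over mice gave p = 0.0469. This call was lost under the mouse block (adjusted p = 0.0159) and without any of 6 of the 7 mice (adjusted p up to 0.0299). With E+P, *Plat* in tdTomato+ luminal cells was lower in 12 of 12 pairs of mice, with a log2 fold change of −2.06 (SE 0.54), but the adjusted p of 0.0127 (edgeR) did not pass, and DESeq2 (0.0028) called it. The summed fibroblast markers in these libraries, whose part in the difference was not tested, ranged from 38.4 to 113 CPM in untreated GFP+, from 7.67 to 79.6 CPM in untreated tdTomato+, from 22.4 to 25.3 CPM in E+P-treated GFP+ and from 28.7 to 58.0 CPM in E+P-treated tdTomato+ luminal cells. In the last of these groups *Dcn* alone had 35.5 CPM on average. The other 8 markers, a split made after the values were seen, summed there to 6.56 to 8.89 CPM, against 20.0 to 21.5 CPM in E+P-treated GFP+, 4.14 to 71.2 CPM in untreated tdTomato+ and 35.8 to 98.1 CPM in untreated GFP+ luminal cells.

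*Plaur* (ENSMUSG00000046223, chromosome 7, 24462484 to 24475968, plus strand) encodes the urokinase receptor. In GFP+ stroma it was at 37.9, 26.7, 62.3 and 37.2 CPM in untreated and 31.5, 23.3 and 24.3 CPM in E+P-treated mice. In tdTomato+ stroma it was at 13.4, 7.22, 14.6 and 19.1 CPM, and at 4.24, 4.45 and 11.1 CPM with E+P. GFP+ stroma was higher in 7 of 7 mice, by 1.79 (SE 0.27) on the log2 scale, and no GFP+ value fell within the tdTomato+ range. Both subsets had lower means with E+P, with log2 fold changes of −0.63 (SE 0.37, adjusted p = 0.768, edgeR) and −1.05 (SE 0.39, adjusted p = 0.199, edgeR), and in each case E+P values were lower in 11 of 12 pairs of mice.

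In GFP+ luminal cells *Plaur* was at 62.6, 26.3, 26.7 and 36.4 CPM in untreated mice and fell to 11.3, 11.6 and 16.8 CPM with E+P. The ranges did not overlap. The log2 fold change was −1.52 (SE 0.29, adjusted p = 0.0045, edgeR), and the exact permutation test gave the smallest p possible here, 0.0286. In tdTomato+ luminal cells the values were 32.4, 22.6, 30.6 and 21.9 CPM without and 31.6, 23.3 and 26.5 CPM with E+P, which overlapped, and the log2 fold change was 0.04 (SE 0.28, adjusted p = 0.941, edgeR). The difference between these responses was −1.56 (SE 0.40) and did not pass the threshold (adjusted p = 0.0341, edgeR), although DESeq2 called it at 0.0037. The call in GFP+ luminal cells was lost without any of the 3 E+P-treated mice, at an adjusted p of 0.0326, 0.0391 and 0.0161, and when only these 2 groups were fitted (0.0235). Luminal progenitor genes (*Elf5*, *Kit* and *Aldh1a3*) and hormone-sensing genes (*Esr1*, *Pgr*, *Prlr* and *Foxa1*), lists chosen after the counts were seen, also differed in sum between these libraries. The progenitor genes went from 1274 to 2062 CPM without to 935 to 1100 CPM with E+P and the hormone-sensing genes from 251 to 1676 CPM to 145 to 250 CPM, and their part in the change of *Plaur* was not tested.

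*Serpinb2* (ENSMUSG00000062345, chromosome 1, 107511423 to 107535478, plus strand) was counted almost exclusively in GFP+ stroma. There it had 118, 78, 726 and 94 reads in untreated mice 1 to 4, or 8.93, 6.04, 44.2 and 8.62 CPM, and 653, 610 and 593 reads, or 53.0, 32.2 and 29.2 CPM, in the E+P-treated mice. In tdTomato+ stroma untreated mouse 3 had 21 reads, 1 E+P-treated mouse had 1, and the other 5 libraries had 0. Of the 14 luminal libraries 13 had 0 reads and the tdTomato+ library of untreated mouse 1 had 2, all under the floor of 3 counts. Over the pooled libraries the level in GFP+ stroma was 42.5 times that in tdTomato+ stroma without hormones (95% interval 27.7 to 69.0) and 2021 times with E+P (362 to 79875), where the lower side rests on 1 read. These intervals cover counting error and not the spread between mice. They are no test of the difference, which was known when the genes were chosen. Untreated mouse 3 gave all 21 untreated reads of tdTomato+ stroma and 726 of the 1016 of GFP+ stroma. Without it the counts were 290 and 0, and GFP+ stroma was at least 83.3-fold higher, with tdTomato+ stroma set to a floor of 3 counts over the group. The gene overlaps *Serpinb10*, a neighbor on the same strand, in 291 exonic bases, and *Serpinb10* was counted at 0 to 10 reads per library. How reads of the shared bases were assigned cannot be told from counts per gene.

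The 250 bases before a start of *Serpinb2* are shown because the gene was the one with nearly all of its reads in a single population. They come from RefSeq for GRCm38.p6, chr1:107511173-107511422, plus strand, written 5′ to 3′ up to the base before the start, with the matches to AP-1 (TGANTCA) and the TATA box (TATAAA) in capitals.
*Serpinb2* promoter: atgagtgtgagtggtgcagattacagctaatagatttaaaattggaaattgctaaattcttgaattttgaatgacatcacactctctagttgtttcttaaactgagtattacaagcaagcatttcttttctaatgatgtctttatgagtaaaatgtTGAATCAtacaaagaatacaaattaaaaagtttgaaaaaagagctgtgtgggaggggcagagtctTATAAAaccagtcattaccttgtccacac
The AP-1 match begins 94 bases and the TATA match 29 bases before this start. Another RefSeq start lies downstream, and the same matches begin 181 and 116 bases before it. Both strands were searched, and 6.75% and 12.4% of 32851 promoters of the same length hold these letters. The stretch has 32.4% G and C and 0 CpG sites, where the median over all promoters is 52.4% (quartiles 45.2% and 61.2%). The letters of the Sp1 box (GGGCGG) and the progesterone receptor half-site (AGAACA) are not in this window, nor is the palindromic estrogen response element.

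Within GFP+ stroma, E+P-treated mice had more *Serpinb2* than 3 of the 4 untreated mice, and untreated mouse 3 lay within the range of the treated ones. The log2 fold change was 1.16 (SE 0.78) and did not pass the test (adjusted p = 0.851, edgeR; exact permutation p = 0.114), with higher values in 10 of 12 pairs of mice. Without untreated mouse 3 it was 2.29, with an adjusted p of 0.0046, and without the low-count filter the adjusted p was 0.0017. In tdTomato+ stroma, with reads in 1 untreated and 1 treated library, the fitted log2 fold change was −4.02 (SE 2.30, adjusted p = 0.425, edgeR). Mouse 3 was also the untreated mouse with *Serpinb2* reads in tdTomato+ stroma. The fibroblast markers were at 62073 CPM in its GFP+ stroma, against 32647 to 47193 CPM in the other untreated mice, and at 7127 CPM in its tdTomato+ stroma, against 3025 to 5285 CPM. Its summed immediate early and dissociation genes were at 8075 CPM in GFP+ stroma, against 7654 to 12912 CPM in the other untreated mice, and at 13871 CPM in tdTomato+ stroma, against 9830 to 12535 CPM. Luminal epithelial markers summed to 31.2 CPM in its GFP+ stroma, against 19.5 to 89.5 CPM, and to 495 CPM in its tdTomato+ stroma, against 19.9 to 302 CPM. The part of these genes in the *Serpinb2* level of mouse 3 was not tested.

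*Serpine2* (ENSMUSG00000026249, chromosome 1, 79794197 to 79861180, minus strand) had the opposite order in stroma. In GFP+ stroma it was at 20.7, 34.9, 25.0 and 15.2 CPM without and 28.7, 22.5 and 23.9 CPM with E+P. In tdTomato+ stroma it was at 90.3, 134, 134 and 116 CPM without and 153, 109 and 148 CPM with E+P. Every tdTomato+ value was above every GFP+ value, and *Serpine2* was the only one of the 5 genes that was lower in GFP+ stroma. The log2 difference was −2.39 (SE 0.17), in 7 of 7 mice. The skeletal muscle and pericyte markers that were found in tdTomato+ stroma moved with this difference, and their part in it was not tested. E+P gave log2 fold changes of 0.07 (SE 0.23, adjusted p = 1, edgeR) in GFP+ and 0.21 (SE 0.22, adjusted p = 0.686, edgeR) in tdTomato+ stroma.

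The sequence before a start of *Serpine2* is shown for contrast with that of *Serpinb2*. It is chr1:79858697-79858915 of GRCm38.p6, minus strand, from RefSeq, and 31 bases next to the start were left out because another annotated transcript begins in them. Capitals mark the letters of the Sp1 box (GGGCGG), which 32.7% of all promoters hold.
*Serpine2* promoter: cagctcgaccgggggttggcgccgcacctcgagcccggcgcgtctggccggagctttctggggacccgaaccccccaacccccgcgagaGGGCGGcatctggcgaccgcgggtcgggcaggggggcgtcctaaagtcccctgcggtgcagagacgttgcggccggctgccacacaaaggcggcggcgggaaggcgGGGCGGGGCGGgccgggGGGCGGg
These 219 bases have 77.6% G and C and 30 CpG sites, and the 250 bases before the start hold no match to the AP-1, TATA, estrogen or progesterone letters searched. The window before the start of *Plaur* held 3 Sp1 matches and 1 AP-1 match, 69 bases before the start, and neither hormone motif.

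In untreated GFP+ luminal cells *Serpine2* was at 6.78, 3.22, 2.97 and 2.20 CPM, and with E+P at 22.9, 15.3 and 7.99 CPM. In tdTomato+ luminal cells it was at 12.6, 2.25, 7.16 and 39.9 CPM in untreated mice and rose to 164, 282 and 267 CPM with E+P. The treated and untreated ranges did not overlap in either subset, and the 3 treated tdTomato+ libraries were above all other libraries of the series, stroma included. The log2 fold change with E+P in tdTomato+ luminal cells was 3.95 (SE 0.73, adjusted p = 0.0022, edgeR), higher in 12 of 12 pairs of mice, with an exact permutation p of 0.0571 where 0.0286 is the smallest possible. The untreated libraries were spread over 2.25 to 39.9 CPM, so the size of the change depended on the mice: with each mouse left out in turn it ranged from 3.59 to 5.02, and its adjusted p from 0.00064 to 0.0148. The threshold was missed without untreated mouse 1 (0.0103), untreated mouse 3 (0.0111) or E+P-treated mouse 2 (0.0148), and when only these 2 groups were fitted (0.0191).

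In GFP+ luminal cells the log2 fold change was 1.99 (SE 0.75), also in 12 of 12 pairs, and did not pass (adjusted p = 0.0966, edgeR). The difference between the responses of the 2 subsets, −1.96 (SE 1.03), did not pass either (adjusted p = 0.295, edgeR). GFP+ luminal cells held less *Serpine2* than the tdTomato+ cells of the same mouse in 6 of 7 mice, by −3.02 on the log2 scale (SE 0.54, adjusted p = 0.00064, edgeR; exact sign-flip permutation p = 0.0313). The exception was untreated mouse 2, at 3.22 against 2.25 CPM. In the 3 E+P-treated mice the subsets did not overlap, and in the untreated mice they did.

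Other genes moved with *Serpine2* in tdTomato+ luminal cells. The hormone-sensing genes summed to 3302 to 5000 CPM without and 1686 to 2755 CPM with E+P. Most of this sum was *Prlr*, whose mean was lower with E+P, as were the means of *Esr1* and *Foxa1*. *Pgr* went the other way, with a higher mean under E+P. The 5 basal epithelial markers summed to 7.60 to 18.3 CPM without and 35.4 to 62.5 CPM with E+P. The basal sum with E+P came mainly from *Trp63*, with means of 1.15 CPM without and 22.2 CPM with E+P, and *Krt17*, with 2.56 and 13.2 CPM. *Krt14* had 1.98 and 2.20 CPM and *Oxtr* 6.17 and 8.70 CPM. *Krt5* went the other way, at 0.470 CPM without and 0.260 CPM with E+P. The basal markers of GFP+ luminal cells summed to 41.6 to 85.5 CPM without and 117 to 132 CPM with E+P, of which *Oxtr* had 41.9 and 92.0 CPM on average and *Trp63* 2.67 and 7.22 CPM. *Krt5* had group means of 0.26 to 0.47 CPM in luminal cells. The sum of 8 endothelial markers was higher with E+P, at 220 to 241 CPM against 31.1 to 134 CPM, of which *Vwf* alone made up 226 CPM on average. The part of these genes in the level of *Serpine2* was not tested.

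**Figure D4:**
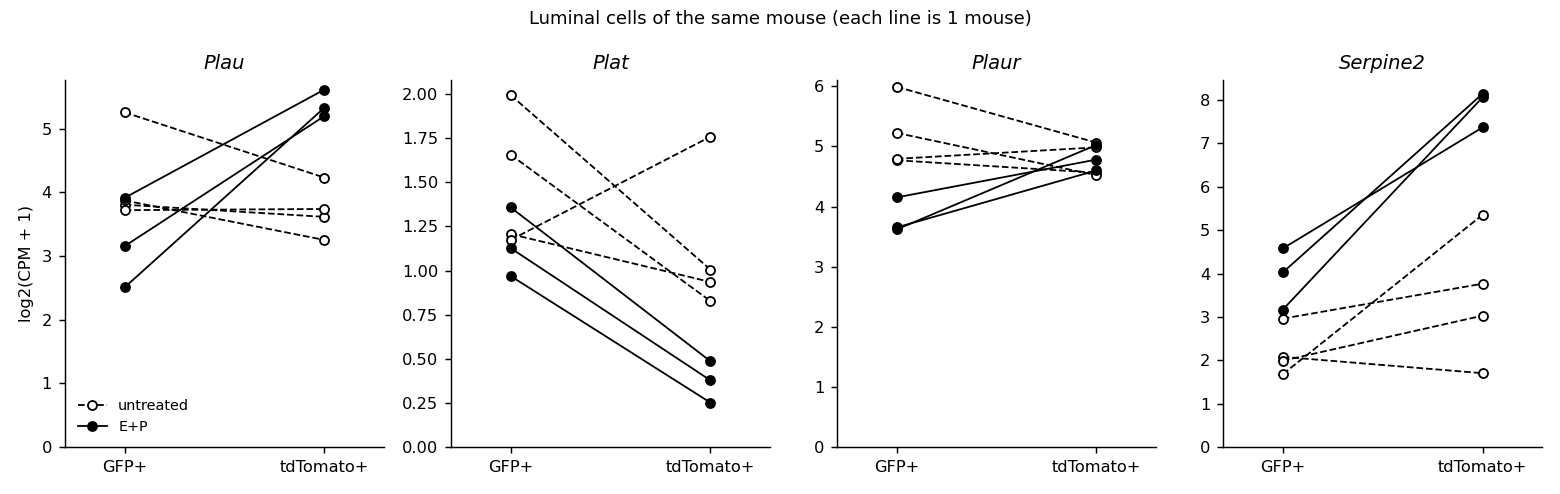
Level of the 4 genes measured in luminal cells on the scale log2(CPM + 1), with the GFP+ and tdTomato+ cells of the same mouse joined by a line, dashed with open points for the 4 untreated and solid with filled points for the 3 E+P-treated mice. The 3 solid lines of *Serpine2* climb to between 164 and 282 CPM in tdTomato+ cells, and the lines of *Plau* climb in the 3 treated mice but not in 3 of the 4 untreated ones.

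Beyond the 5 genes, 28 other genes of the plasminogen system were followed as a list, comprising plasminogen receptors, further inhibitors, clearance receptors, binding partners and related proteases. In stroma 20 passed the low-count filter, and 14 of them differed between GFP+ and tdTomato+ cells, 11 higher and 3 lower in GFP+ cells, or 14 of 20 where 42.0% of all genes differed, with a median log2 difference of 0.76 against −0.01 over all genes. *Clec3b*, the gene of the plasminogen-binding protein tetranectin, was higher in GFP+ stroma, at 493 ± 162 against 39.9 ± 43.8 CPM (SD, n = 7 each), by 4.15 on the log2 scale (SE 0.48, adjusted p = 1.7e-05, edgeR). The integrin gene *Itgb3* (3.91), the clearance receptor gene *Lrp1* (2.44) and *S100a10* (2.28), whose product binds plasminogen together with annexin A2, were higher as well. The lower ones were *Vtn* (−2.00), the gene of vitronectin, which binds the urokinase receptor, *Thbd* (−1.84), the gene of thrombomodulin, and *Lrp2* (−3.22), which was under 10 CPM.

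Stroma and luminal cells differed in 17 of 21 genes of the list, 14 higher and 3 lower in stroma, where 63.5% of all genes differed, with a median of 2.31 against 0.02 over all genes. The largest differences among genes above 10 CPM were those of *Vtn* (10.07), *Thbd* (9.68), *Clec3b* (9.46) and *Tfpi* (8.43), which encodes an inhibitor of the tissue factor pathway. *Anxa2* (−0.71) and *Eno1* (−1.09), which encode plasminogen-binding proteins with other main roles, were higher in luminal cells.

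Of the list, 8 of 16 genes differed between the luminal subsets, 2 higher and 6 lower in GFP+ cells, where 34.7% of all genes differed, with a median of −0.13 against 0.00 over all genes. Without E+P-treated mouse 2 or mouse 3 the count was 5. The higher ones were *Vldlr* (1.29), a clearance receptor gene, and *Plgrkt* (0.48), a plasminogen receptor gene, whose call was lost without untreated mouse 1, 2 or 3 or E+P-treated mouse 2 or 3. *Lrp1* (−1.37), *Itgb5* (−1.13), *Itgav* (−0.82) and *S100a10* (−0.71) were among the lower ones.

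With E+P, 5 of 16 genes of the list passed in tdTomato+ luminal cells, 3 higher and 2 lower, where 14.1% of all genes did. *Lrp2*, the gene of the endocytic receptor megalin, had 0.0516, 0, 0.217 and 0 CPM in the untreated and 74.5, 77.2 and 108 CPM in the treated mice. It therefore went from at most 3 reads a library to 930 or more, and its fitted log2 fold change of 10.50 (adjusted p = 1.0e-06, edgeR) depends on how the near-absent reads are treated. *S100a10* rose by 1.16 (SE 0.18, adjusted p = 0.00039, edgeR) and *Itgb5* by 0.86 (SE 0.16, adjusted p = 0.0013, edgeR), while *Lrp1* fell by 2.10 and *Plgrkt* fell by 1.45. The call of *Itgb5* was lost without E+P-treated mouse 2 or 3 and that of *Lrp1* without E+P-treated mouse 1. In GFP+ luminal cells 3 of 16 passed, where 5.96% of all genes did. *Anxa2* had 352 ± 57.0 CPM (n = 4) without and 166.3 ± 14.3 CPM (n = 3) with hormones and fell by 1.08 in log2 terms, and *Masp1* fell from 6.22 to 0.370 CPM, a call that was kept in 1 of the 7 fits that leave a mouse out, the one without untreated mouse 4. *Lrp2* rose there too, from at most 0.4 CPM in untreated mice to 9.52, 5.76 and 2.96 CPM (log2 fold change 4.90, adjusted p = 0.00044, edgeR). The responses of the luminal subsets differed for *S100a10* (−1.59, SE 0.25, adjusted p = 0.0024, edgeR), *Itgb5* (−1.38, SE 0.22, adjusted p = 0.0028, edgeR) and *Anxa2* (−1.03, SE 0.17, adjusted p = 0.0036, edgeR), 3 of 16 where 2.27% of all genes differed. The number of calls fell to 1 without untreated mouse 1 or E+P-treated mouse 1 and to 0 without E+P-treated mouse 2 or 3, and DESeq2 called 5.

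In GFP+ stroma *Vtn* was the 1 gene of 20 that passed with E+P, where 0.231% of all genes did. It was at 24.1, 39.1, 22.1 and 28.4 CPM in untreated and 11.3, 11.1 and 11.2 CPM in treated mice. It fell by 1.33 on the log2 scale (SE 0.21, adjusted p = 0.0039, edgeR), without overlap. This call was lost with limma-voom and without untreated mouse 4 or any 1 of the 3 treated mice. In tdTomato+ stroma 0 of 20 passed, with 3 at an unadjusted p under 0.05 in edgeR, where 0.124% of all genes passed. In the same test limma-voom called 0 and DESeq2 1. For the difference between the stromal responses 0 passed in edgeR and limma-voom, with 7 at an unadjusted p under 0.05, and DESeq2 called 1. Of all genes 0.0450% passed this test in edgeR.

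*Serpinb2* belongs to a family of clade B serpins, mostly intracellular inhibitors, of which 26 other genes were followed. In stroma 8 passed the low-count filter and 5 of them were higher in GFP+ cells, where 42.0% of all genes differed. These were *Serpinb8* (2.71), *Serpinb9* (2.53), an inhibitor of granzyme B, *Serpinb1a* (2.10) and *Serpinb6a* (1.39), with *Serpinb9b* (2.57) at only 2.10 CPM in GFP+ stroma. Members of these families are near-identical in places, so reads may be split between *Serpinb9* and *Serpinb9b* or among the *Serpinb6* genes. Between lineages 8 of 8 passed, against 63.5% of all genes, 7 of them higher in stroma. *Serpinb5*, the gene of maspin, was lower, at 0.728 ± 1.26 against 58.8 ± 20.9 CPM. These SDs are over 14 libraries of 7 mice per lineage, with both subsets and treatments pooled. In luminal cells *Serpinb6a* (1.24) and *Serpinb5* (0.73) were higher in GFP+ cells, 2 of 5 genes where 34.7% of all genes differed. With E+P *Serpinb9* fell in both luminal subsets, from 8.88 ± 1.52 to 3.63 ± 0.72 CPM in GFP+ and from 9.39 ± 2.12 to 2.36 ± 0.29 CPM in tdTomato+ cells (SD, n = 4 and 3). No other clade B serpin passed in edgeR or limma-voom, while DESeq2 also called *Serpinb6a* in GFP+ cells. In edgeR this was 1 of 5 genes in each subset, where 5.96% of all genes passed in GFP+ and 14.1% in tdTomato+ cells. The call of *Serpinb9* in GFP+ cells was lost without untreated mouse 1 or any 1 of the 3 treated mice. In stroma 0 of 8 passed with E+P in edgeR in either subset, with 2 at an unadjusted p under 0.05 in each. Of all genes 0.231% passed in GFP+ and 0.124% in tdTomato+ stroma. There limma-voom called 0 in both, and DESeq2 called 0 in GFP+ and 1 in tdTomato+ stroma.

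The genes whose pattern over the 28 libraries was most like that of each member were found by Pearson's r of log2 CPM, as a description, since libraries share mice, lineage and subset. For *Serpinb2* these were *Kera* (0.979), *Cyp4f15* (0.975) and *Gm30075* (0.975). *Plat* was closest to *Mrc2* (0.994), *Islr* (0.990) and *Angptl2* (0.989), and *Plau* to *Ifi204* (0.970), *Emilin2* (0.969) and *Kremen1* (0.969). The values for *Serpine2*, with *Smarcd3* (0.920), *Dgkh* (0.876) and *Ablim3* (0.875), and for *Plaur*, with *S100a16* (0.861), *S100a11* (0.834) and *Ptprj* (0.834), were lower. Among the members, *Plau* and *Plat* were the most alike, at 0.909, and *Plaur* and *Serpine2* the least, at −0.459. The receptor and its ligand *Plau* had an r of −0.03.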

How the data were processed

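Read counts per gene in 28 libraries, as deposited by the authors without normalization, were the starting point. Per the labels and methods, RNA (2 ng) was made into libraries with a stranded low-input kit after a fragmentation time adapted to RNA quality, and reads were aligned with STAR 2.5.2a to GRCm38.p5 with a GENCODE annotation. The release and the strand setting of the counting are not given in the sources used here. Symbols and coordinates came from GENCODE M21, in which 50376 of 50600 gene IDs were found, and promoter sequences from a table of RefSeq windows, in which 3 of the 5 genes were matched.

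Groups came from the sample titles. The 5 genes, the lists and the tests were chosen with earlier results of these data known. Counts were scaled by TMM, filtered with filterByExpr and tested, two-sided, by quasi-likelihood with robust dispersions (edgeR 4.0.16, R 4.3.3), in fits of the 14 stromal, 14 luminal or all 28 libraries with each group as a term. P values were adjusted after Benjamini-Hochberg across all genes of a fit, with a threshold of 0.01, and standard errors were derived from the log2 fold change and its F statistic. The 5 genes were further tested by exact permutation of treatment labels, or by sign flips within mice, using log2 CPM (prior count 2). Where the samples are separate mice, p values measure the spread between these mice.

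The titles give the 4 libraries of a mouse the same number. Deviations from group means correlated within a mouse at 0.0496 between stromal subsets and 0.157 between luminal subsets, and the mouse as a block was an alternative. Other alternatives were scaling by library size only, no low-count filter, voom of limma 3.58.1, the Wald test of DESeq2 1.42.0, a fit of only the groups compared, an adjusted p of 0.05, and leaving out each replicate. On simulated counts, 82.5% of 4-fold and 51.5% of 2-fold changes were called between luminal subsets, 59.8% and 18.4% in the E+P test of GFP+ stroma, and 71.7% and 28.0% in that of tdTomato+ luminal cells. The simulated libraries were independent of each other. In both luminal tests far fewer genes were changed than were called in the data, so these shares may not hold for the data. From the other lists up to 4 genes in each direction were named, those with the largest difference among genes past the threshold whose higher group had 10 CPM or more, and any other gene was named after its values were seen. An item of the plasminogen list is not reported here and does not enter its counts.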

Additional observations from a re-analysis of the deposited data

Results flagged for a closer look

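In 17 groups of 4 untreated libraries with fewer than 3 libraries at 0, 3 held a library that stood apart from the others by more than Dixon's criterion allows. For normally distributed values the criterion flags about 1 in 20 groups by chance. Its rate for CPM such as these was not estimated. *Serpinb2* was at 44.2 CPM in the GFP+ stroma of untreated mouse 3, *Plau* was at 37.3 CPM in the GFP+ luminal cells of untreated mouse 4, and *Plat* was at 2.39 CPM in the tdTomato+ luminal cells of untreated mouse 3. In 2 further groups, *Serpinb2* in tdTomato+ stroma and tdTomato+ luminal cells, the other 3 libraries were at 0, so that any read meets the criterion. There untreated mouse 3 had 1.39 CPM and untreated mouse 1 had 0.103 CPM, or 2 reads.

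The response to E+P differed between GFP+ and tdTomato+ luminal cells, in edgeR's test of the interaction, for *Itgb5* by −1.38, *Anxa2* by −1.03 and *S100a10* by −1.59 on the log2 scale, each with a smaller or more negative change in GFP+ cells. The number of these calls fell to 1 without untreated mouse 1 or E+P-treated mouse 1 and to 0 without E+P-treated mouse 2 or 3.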

How the results depend on the processing

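Of 581 values that 41 results for the 5 genes took under other settings, 518 kept their direction and their side of the threshold or moved by less than the spread between libraries, 17 lost a call, 25 gained one, 17 changed sign and 4 moved further. The causes were not tested, beyond the fewer mice of the fits that leave a mouse out. Depth limits *Serpinb2* outside GFP+ stroma and *Plat* in luminal cells, which rest on few reads. By the longest annotated transcript in place of merged exons, *Serpine2* in E+P-treated tdTomato+ luminal cells was at 70.1 instead of 28.7 CPM per kilobase and *Plat* in untreated GFP+ stroma at 126 instead of 81.9. Ranking likeness by Spearman's rho kept 0 of the 3 genes named for *Serpinb2* and 1 of 3 for each of *Serpine2*, *Plat* and *Plaur*.

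Sign changes concerned log2 fold changes near 0 or resting on few reads. Leaving out each mouse gave −0.10 to 0.29 for *Serpine2* and −0.038 to 0.16 for *Plau* with E+P in GFP+ stroma, −5.58 to 1.63 for *Serpinb2* and −0.20 to 0.084 for *Plat* in tdTomato+ stroma, −0.11 to 0.15 for *Plaur* in tdTomato+ luminal cells, and −0.31 to 0.028 for *Serpine2* and −0.19 to 0.14 for *Plat* in the difference between stromal responses. *Plaur* in tdTomato+ luminal cells was at −0.19 when scaled by library size only.

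Without the low-count filter 1 of the 4 genes was called between luminal subsets and 0 for E+P in GFP+ luminal cells. Of the 5 genes in stroma, E+P gave 1 call in GFP+ stroma, 2 in tdTomato+ stroma and 1 in the difference between responses. *Serpinb2* was called each time, and *Plaur* was the other call in tdTomato+ stroma. The calls of *Serpinb2* in tdTomato+ stroma and in the difference rest on 21 untreated reads and 1 treated read of tdTomato+ stroma. For E+P in tdTomato+ luminal cells scaling by library size and limma-voom each called 2, and DESeq2 and an adjusted p of 0.05 called 3 each. For the difference between luminal responses limma-voom called 1, DESeq2 2 and an adjusted p of 0.05 2. In a fit of only the 2 groups, 0 were called for E+P in GFP+ luminal cells. Leaving out each mouse, from 1 to 2 were called between luminal subsets, from 0 to 1 for E+P in GFP+ stroma, GFP+ luminal cells and the difference between luminal responses, and from 0 to 2 in tdTomato+ luminal cells.

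The share of all genes called moved more. For E+P in GFP+ stroma 0.231% became 1.29% without the filter, 0.562% with limma-voom, 1.08% with DESeq2, 1.23% in a fit of only these groups, 0.709% at an adjusted p of 0.05 and 0.0863% to 0.265% without a mouse. For tdTomato+ stroma 0.124% became 0.191% by library size, 2.36% without the filter, 0.0450% with limma-voom, 2.16% with DESeq2, 0% with only these groups, 0.804% at 0.05 and 0.00539% to 0.486% without a mouse. For GFP+ luminal cells 5.96% became 12.3% with DESeq2, 3.71% with only these groups, 15.0% at 0.05 and 0.999% to 5.91% without a mouse, and for tdTomato+ luminal cells 14.1% became 21.5% with DESeq2, 26.9% at 0.05 and 6.72% to 13.0% without a mouse. For the difference between stromal responses 0.0450% became 1.42% without the filter, 0.0225% with limma-voom, 0.624% with DESeq2, 0.242% at 0.05 and 0.00535% to 0.0743% without a mouse, and for the luminal one 2.27% became 6.13% with DESeq2, 6.58% at 0.05 and 0.195% to 1.91% without a mouse.

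With the mouse as a block, 0.0731% of all genes were called for the difference between stromal responses, and of the 4 genes measured in luminal cells 1, *Plau*, for the difference between luminal responses. Untreated and E+P-treated mice that share a number are different mice, whose deviations correlated at −0.0436 to 0.0129 on average in the 4 populations. With this number as a block 0.253% of all genes were called for E+P in tdTomato+ stroma and 2 of the 4 genes in tdTomato+ luminal cells, where *Plaur* was at −0.00093. Beyond these and the calls given with the results, the blocks changed no call of the 5 genes.

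Of the other plasminogen genes, 3 were called for E+P in GFP+ stroma without the filter and 2 in a fit of only these groups, 5 in tdTomato+ stroma and 4 for the difference between stromal responses without the filter, and 5 each in GFP+ luminal cells and for the difference between luminal responses at an adjusted p of 0.05. Of the clade B serpins, without the filter 1 was called in tdTomato+ stroma and 1 for the difference between stromal responses. In GFP+ luminal cells 0 were called in a fit of only these groups and 3 at an adjusted p of 0.05, and in tdTomato+ luminal cells 2 at 0.05. The ratio of *Serpinb2* without untreated mouse 3, at least 83.3, was chosen after seeing the data.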
